A study of Mus musculus with 26 samples.

Results

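Receptors for neurotransmitters and autacoids (locally acting mediators such as histamine, prostaglandins and extracellular nucleotides) were examined by gene symbol. A probe was a member if its 1 gene symbol began with the root of an adrenergic, muscarinic, nicotinic, GABA, glutamate, serotonin, dopamine, purinergic, adenosine, VIP, tachykinin, neuropeptide Y, prostaglandin E, histamine, opioid, somatostatin, galanin or protease-activated receptor. This gave 89 probes for 89 genes, of 10500 probes in the table (8841 genes). They were 51 G protein-coupled receptors, 36 subunits of ligand-gated channels and 2 genes whose symbol fits without being a receptor, Npy (the peptide neuropeptide Y) and Grina (a membrane protein named after a glutamate receptor). The series measured messenger RNA in 5 exocrine glands of the head of male and female BALB/c mice. Each array carried a pool of 10 glands from 5 animals, as the labels state. Submandibular, lacrimal and meibomian glands had 3 male and 3 female pools each, and sublingual and parotid glands had 2 male and 2 female pools each. The sources used here give no age and no treatment.

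The submandibular, sublingual and parotid glands make saliva, tears get their water and protein from the lacrimal gland and their lipid from the meibomian gland of the eyelid. Saliva and tear secretion is driven by autonomic nerves: acetylcholine acts on muscarinic receptors that raise cell calcium, and noradrenaline acts on alpha receptors that raise calcium and on beta receptors that raise cyclic AMP. VIP, substance P and ATP act beside them. G protein-coupled receptors signal through Gq (calcium), Gs (more cyclic AMP) or Gi (less cyclic AMP), and ligand-gated channels pass ions directly.

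Values are the deposited scaled intensities, in which the median over all probes of an array lay between 0.928 and 0.955. Differences are on the log2 scale with their standard error (SE), from 1 limma fit over all 26 arrays. A sex difference was called at an adjusted p of at most 0.05, and a gland difference also had to reach 1 on the log2 scale. The meibomian label matched the markers Elovl3 and Lpo. The lipid gland gene Elovl3 lay between 85.5 and 114 on meibomian arrays and between 0.235 and 1.14 on all others. The secretory gene Lpo lay between 0.248 and 0.355 on meibomian arrays and between 79.6 and 534 on all others. Another lipid gland gene, Scd1, overlapped between meibomian (18.9 to 50.7) and submandibular arrays (8.30 to 51.9). Lpo overlapped among the salivary glands, so these markers do not check their labels against each other. Pooled tissue RNA cannot tell fewer cells of a type from less RNA per cell. The arrays fell into a set of 10 and a set of 16 that the labels do not name. The sets follow the sign of the leading principal component of the deviations from the gland means (29.7% of their variance). Taking deviations from the gland means puts arrays of all 5 glands in both sets, so that balance was fixed in advance. Each gland had both sexes in each set, and the male and female pools of a letter and gland lay in the same set.

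Testing kept probes that, in at least 1 of the 10 groups, stood at or above the array's 30th percentile in every pool. A probe is called dim in a group where every pool was below that percentile. Of the 89 receptor-family probes 51 were kept (57.3%, against 78.4% of all probes): 32 G protein-coupled receptors, 18 channel subunits and Grina. The other 38 were dim in 6 to 10 of the 10 groups, and 17 of them in all 10. These 17 include the muscarinic receptor Chrm1, which ranged up to 0.299, the nucleotide receptor P2ry2, which ranged up to 0.349, and the histamine receptor Hrh1, which ranged up to 0.458. The rest of the 17 were Adora3, Gria1, Gria4, Gabra6, Galr3, Grik1, Grm8, Chrng, Grin2a, Grin2b, Grin2c, Ptger1, Ptger3 and Htr3a. Those that were not kept but reached the percentile on some arrays were Chrna4, Chrna7, Chrnb2, Chrne, Drd2, F2rl2, Gabra2, Gabra3, Gabrb1, Gabrg1, Gabrg3, Galr2, Grm3, Hrh4, Htr1f, Npy, Npy5r, Oprl1, Ptger2, Sstr4 and Tacr2. Among these Gabrb1, a GABA channel subunit, had the highest single value, 1.95. None of the 3 NMDA, 2 metabotropic glutamate, 2 galanin or 1 adenosine receptor probes was kept. Of the serotonin receptors 9 of 10 were kept, and all 5 P2X channels. The secretion receptors Adra1a, Adrb1, Vipr2 and F2rl1 were not analysed here.

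The 5 glands differed in nearly all kept receptor probes. In the F test across glands 47 of 51 were called, against 80.4% of all probes, and the exceptions were Chrna5, Gabrd, F2r and Oprd1. Each gland was then set against the mean of the other 4. The meibomian gland had 2 higher and 26 lower, against 16.9% higher and 21% lower over all probes. The lacrimal gland had 17 higher and 2 lower, against 11.7% and 8.56% (20.2% in either direction). The parotid gland had 8 higher and 3 lower (8.96% and 8.11% over all probes), the sublingual gland 5 and 3 (5.86% and 5.23%), and the submandibular gland 4 and 2 (5.69% and 6.6%).

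**Figure D1:**
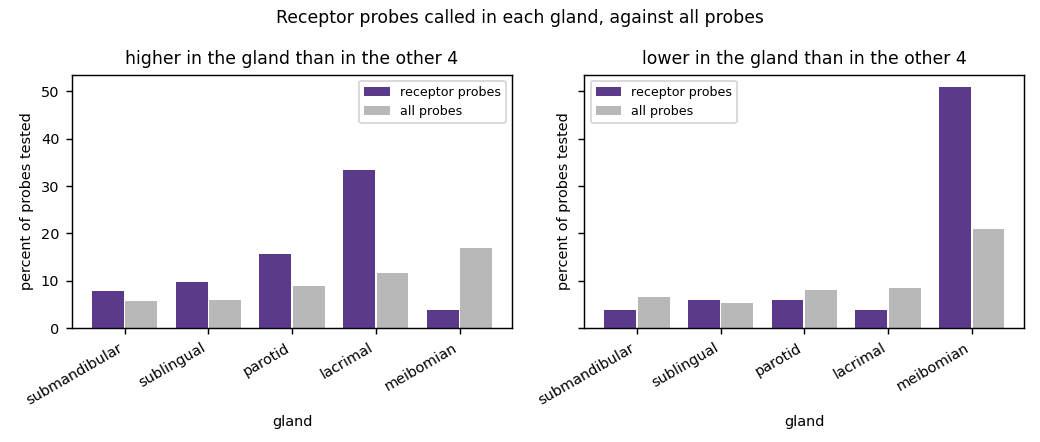
Percent of the 51 kept receptor probes (dark) and of all probes tested (grey) that were called higher (left panel) or lower (right panel) in each gland than in the mean of the other 4. The lacrimal bar on the left stands at 33.3% against 11.7%, and the meibomian bar on the right at 51% against 21%.

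The cell types in the dissected tissue differed too. On meibomian arrays a sum of 7 markers of serous and mucous secretory cells lay between 30.5 and 38.6, against 281 to 1189 on the others, and 5 of 8 such probes were lower and 1 higher. A sum of 8 markers of the stratified epithelium of skin and lid lay between 163 and 270, against 4.45 to 33.2, with 9 of 10 higher. A sum of 9 nerve and Schwann cell markers lay between 27.1 and 37.7 on meibomian arrays, 13.5 and 18.2 on lacrimal arrays and 71.5 and 131 on sublingual arrays. Most of the sublingual sum was 1 probe, Gfap (geometric mean 72.7 in males and 57.1 in females). Most of the meibomian sum was Pmp22 (23.2 in males and 25.9 in females). Sox10 was highest in parotid glands (12.9 and 12.2), against 4.06 and 6.40 in sublingual and 0.380 and 0.492 in meibomian glands. The part of these cell types in the receptor counts was not tested.

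The median log2 difference of the kept probes was -1.03 in the meibomian gland, where the median of all probes was -0.09, and 0.67 in the lacrimal gland, where the median of all probes was 0.13. These medians cover probes that had to be bright somewhere to be kept. Without that filter, 43 of 89 (48.3%) were lower in the meibomian gland, against 28% of all probes, and 38 of 89 (42.7%) were higher in the lacrimal gland, against 21.9%. The receptor probes were dimmer than most: 27 of the 51 lay in the lowest of 4 equal bins of mean level. Within that bin 14 of 27 were lower in the meibomian gland (27.1% of all probes there), and 11 of 27 were higher in the lacrimal gland (14% of all probes there). In the highest bin 4 of 5 were lower in the meibomian gland, against 20.1%. The 30th percentile itself lay between 0.281 and 0.306 on meibomian arrays and between 0.351 and 0.561 on lacrimal arrays, against 0.298 to 0.377 on the arrays of the salivary glands. With quantile normalization, which gives all arrays the same distribution, the meibomian gland had 20 lower (16.8% of all probes) and the lacrimal gland 12 higher (8.73%). With log2 of the intensity plus 0.25, which compresses low values, the counts were 11 lower in the meibomian gland (13.9%) and 9 higher in the lacrimal gland (8.47%). Quantile normalization also turned the lacrimal split of all probes to 8.73% higher and 13.7% lower. The part of these array-wide differences in the counts was not tested further.

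**Figure D2:**
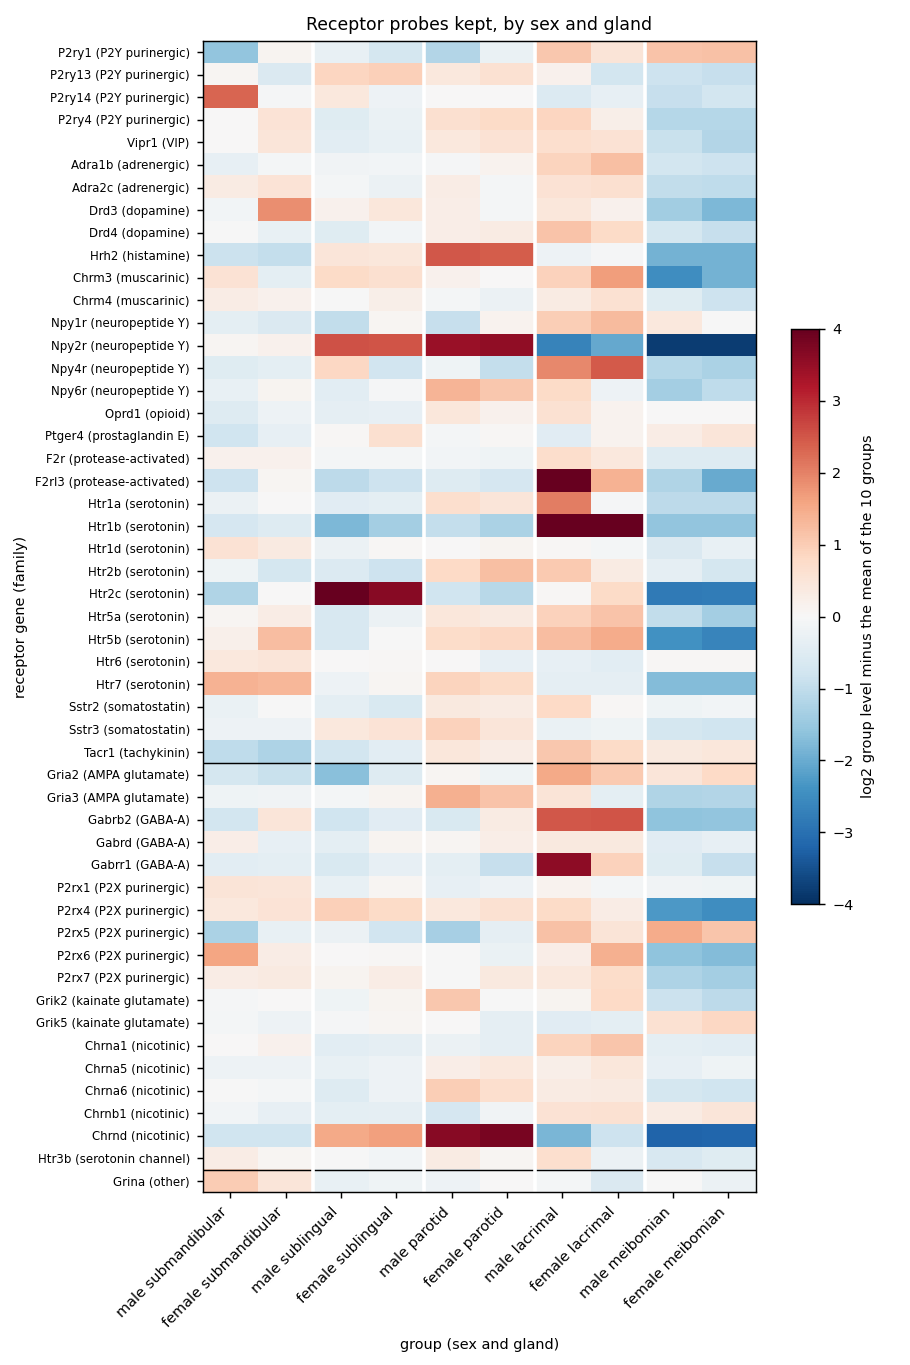
Heat map of the 51 kept probes (rows, gene and family; G protein-coupled receptors above the upper line, channel subunits below it, Grina at the foot) in the 10 groups (columns, male left of female in each gland). Colour gives the log2 group level minus the mean of the 10 groups, from -4 (blue) to 4 (red), and deeper values take the end colours. The meibomian columns are blue for most rows, Htr1b is dark red in both lacrimal columns and F2rl3 in the male one, and Npy2r and Chrnd are dark red in the parotid columns.

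The receptors that differed between the sexes lay in the lacrimal and submandibular glands. In the lacrimal gland 3 of 51 were higher in males (2.89% of all probes were higher, and 5.37% were called in either direction). F2rl3 encodes PAR4, a Gq-coupled receptor that thrombin activates by cutting it. Its intensities were 21.7, 10.1 and 6.38 in male lacrimal pools, against 0.828, 0.410 and 0.557 in female lacrimal pools, with no overlap (19.5-fold, 4.28 ± 0.57, adjusted p = 3.45e-05). Gabrr1, the rho1 subunit of a GABA-gated chloride channel best known from the retina, stood at 16.5, 7.54 and 2.97 in male pools, against 1.78, 1.41 and 0.595 in female pools. The groups did not overlap (6.28-fold, 2.65 ± 0.49, adjusted p = 0.00150). Htr1a, a Gi-coupled serotonin receptor, stood at 286, 139 and 143 in male pools, against 49.3, 38.6 and 36.4 in female pools, again without overlap (4.34-fold, 2.12 ± 0.46, adjusted p = 0.00651). The lowest male pool of each of these 3 receptors was above the highest female pool.

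In the other glands F2rl3 was low in both sexes, at 0.0462 to 0.362 over 20 arrays, and the female lacrimal pools lay above all of them. Female lacrimal pools of Htr1a lay inside the range of the other glands, 13.3 to 90.0. The F test of whether the sex difference varied between glands called F2rl3 alone (adjusted p = 0.00287, 2.65% of all probes). Gabrr1 was not called in the 16 arrays of the larger set alone (adjusted p = 0.0700) or in a fit to the lacrimal arrays alone (adjusted p = 0.156), and Htr1a was not with array weights (adjusted p = 0.0856). Among marker lists in the lacrimal gland, Adipoq and Retn of 8 adipocyte probes were lower in males, with a sum over 6 of them of 5.22 to 16.03 in male pools and 13.4 to 28.8 in female pools. Of 7 B and plasma cell probes Jchain was higher, with sums of 41.2 to 81.7 in male pools and 12.7 to 34.2 in female pools. Scd1 of 8 lipid gland probes was higher too, with sums of 17.4 to 20.9 in male pools and 10.0 to 15.9 in female pools. Sox10 of 9 nerve and Schwann cell probes was lower (sums of 13.5 to 18.0 in male pools and 13.999 to 18.2 in female pools), and so was Kit of 8 mast cell probes (9.20 to 14.5 in male pools and 13.2 to 15.04 in female pools). Their part in the receptor differences was not tested.

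In the submandibular gland P2ry14 was higher in males and was the only one of 51 called (2.58% of all probes, 1.91% higher in males). It encodes a Gi-coupled receptor for UDP-glucose and related UDP-sugars. Its intensities were 27.1, 16.6 and 24.5 in male submandibular pools, against 6.81, 2.48 and 4.48 in female submandibular pools. The groups did not overlap (5.26-fold, 2.39 ± 0.56, adjusted p = 0.0180). The call was lost without female pool B (adjusted p = 0.124), female pool C (0.0515), male pool A (0.0946) or male pool C (0.0684). Skeletal muscle markers moved in the same direction: 8 of 18 were higher in males, with sums of 22.3 to 26.7 in male pools and 5.26 to 7.91 in female pools. So did 4 of 7 markers of smooth muscle and myoepithelium, with sums of 67.6 to 124 in male pools and 23.9 to 37.0 in female pools. Other lists went the other way. Sums of the lipid gland list were 15.8 to 20.9 in male pools and 42.8 to 62.6 in female pools. Sums of B and plasma cell markers were 16.8 to 30.7 in male pools and 37.3 to 47.7 in female pools. T cell sums were 5.32 to 5.90 in male pools and 7.66 to 8.89 in female pools. The part of these lists in the P2ry14 difference was not tested.

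**Figure D3:**
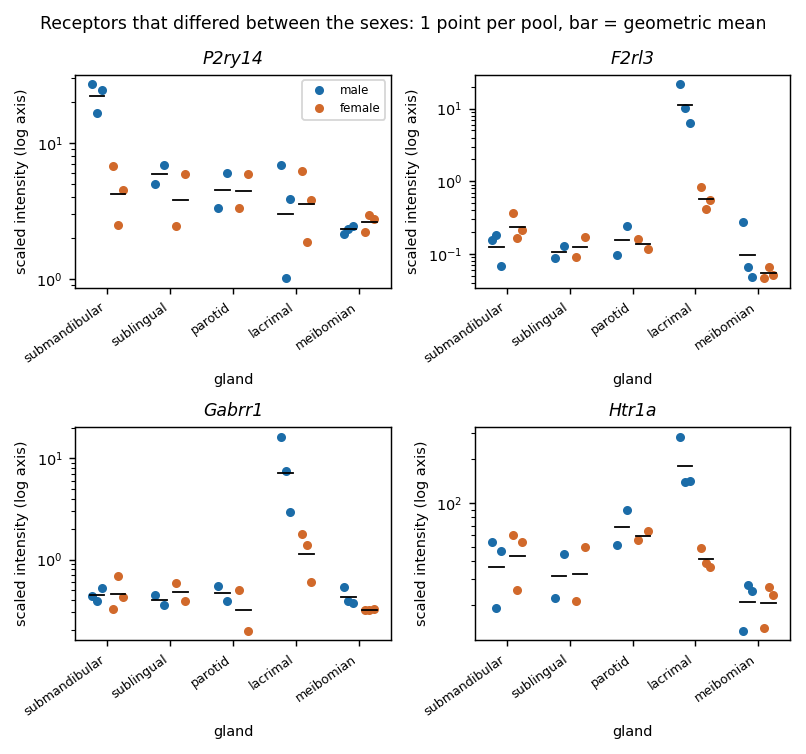
Scaled intensity (log axis) of P2ry14, F2rl3, Gabrr1 and Htr1a by gland, 1 point per pool, male (blue) left of female (orange), with a bar at the geometric mean. The male points clear the female points of the same gland for P2ry14 in the submandibular gland and for the other 3 in the lacrimal gland.

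None of the 51 was called for sex in the sublingual, parotid or meibomian gland, where limma called 0.207%, 0.0243% and 0.0365% of all probes (0.0851% higher in male sublingual glands) and none of the 51 reached an unadjusted p under 0.05. In the mean of the 5 glands none was called either (1.26% of all probes, 0.875% higher in males), and 3 reached an unadjusted p under 0.05. The pools of the same letter moved together across the sexes, and with the letter within gland as a replicate block more receptors were called. The submandibular count became 6 (7.2% of all probes): besides P2ry14 (adjusted p = 9.98e-05) these were Gabrd (0.60) and P2rx6 (1.27), higher in males, and Drd3 (-1.96), P2ry1 (-1.71) and P2ry4 (-0.55), lower in males. The lacrimal count became 9 (13.5% of all probes), with Npy6r (0.99), Htr3b (0.91), Sstr2 (0.75) and P2ry4 (0.61) higher and P2rx6 (-1.15) and Grik2 (-0.70) lower in males. P2rx6 and P2ry4, both nucleotide receptors, thus had opposite signs in the 2 glands, and of these the F test with the block called P2ry4 alone. With the block P2ry14, Gabrr1 and Htr1a were called in the mean of the 5 glands (3, 4.01% of all probes), and the F test called P2ry14, F2rl3, Gabrr1, Htr1a and P2ry4 (5, 7% of all probes).

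The promoters of the 4 receptors that differed between the sexes, and of Htr1b and Npy2r, 2 receptors with large gland differences, are shown from the RefSeq table of GRCm38.p6, 250 bases before to 50 after the start of transcription. Capitals mark CANNTG, an E-box core that reads the same on both strands. P2ry14 has 4 starts in the table and the one listed first is shown.
F2rl3, chr8:72761409-72761708, plus strand: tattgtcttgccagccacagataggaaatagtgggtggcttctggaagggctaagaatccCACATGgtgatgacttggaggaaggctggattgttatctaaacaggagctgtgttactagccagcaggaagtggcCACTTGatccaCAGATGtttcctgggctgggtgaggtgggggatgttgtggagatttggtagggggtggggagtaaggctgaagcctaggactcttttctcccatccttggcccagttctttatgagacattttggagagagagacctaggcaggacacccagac
Gabrr1, chr4:33132306-33132605, plus strand: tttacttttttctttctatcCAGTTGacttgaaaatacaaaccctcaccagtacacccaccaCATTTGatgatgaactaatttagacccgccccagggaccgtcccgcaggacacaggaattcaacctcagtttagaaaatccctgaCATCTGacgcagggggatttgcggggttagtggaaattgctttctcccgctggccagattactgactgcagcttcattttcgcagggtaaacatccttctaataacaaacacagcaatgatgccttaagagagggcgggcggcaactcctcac
Htr1a, chr13:105443443-105443742, plus strand: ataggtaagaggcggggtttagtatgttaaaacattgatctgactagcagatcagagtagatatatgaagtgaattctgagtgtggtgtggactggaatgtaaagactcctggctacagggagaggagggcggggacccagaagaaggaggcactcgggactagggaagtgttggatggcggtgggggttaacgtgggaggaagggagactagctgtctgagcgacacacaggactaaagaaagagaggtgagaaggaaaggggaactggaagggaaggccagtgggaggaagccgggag
P2ry14, chr3:59153443-59153742, minus strand: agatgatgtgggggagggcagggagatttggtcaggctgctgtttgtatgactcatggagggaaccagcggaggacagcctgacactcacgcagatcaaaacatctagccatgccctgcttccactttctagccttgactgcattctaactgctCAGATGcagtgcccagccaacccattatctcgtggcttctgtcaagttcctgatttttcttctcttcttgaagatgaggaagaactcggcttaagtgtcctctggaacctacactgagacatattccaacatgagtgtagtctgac
Htr1b, chr9:81633783-81634082, minus strand: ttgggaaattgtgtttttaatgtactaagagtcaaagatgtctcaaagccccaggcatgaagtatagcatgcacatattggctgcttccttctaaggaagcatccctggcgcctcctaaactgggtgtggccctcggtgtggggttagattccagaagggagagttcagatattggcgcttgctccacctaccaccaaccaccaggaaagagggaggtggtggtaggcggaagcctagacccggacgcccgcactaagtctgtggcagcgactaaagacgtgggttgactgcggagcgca
Npy2r, chr3:82548036-82548335, minus strand: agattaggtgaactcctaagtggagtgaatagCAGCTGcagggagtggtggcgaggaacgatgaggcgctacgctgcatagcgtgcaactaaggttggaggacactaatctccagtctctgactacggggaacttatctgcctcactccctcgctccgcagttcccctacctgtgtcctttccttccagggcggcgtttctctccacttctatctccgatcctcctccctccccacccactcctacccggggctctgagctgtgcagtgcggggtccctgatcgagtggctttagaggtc
F2rl3 and Gabrr1 each hold 3 CANNTG matches, P2ry14 and Npy2r hold 1, and Htr1a and Htr1b hold 0, while 72.1% of 27025 promoters of the same length hold at least 1. The androgen and glucocorticoid receptor element core AGAACA (both strands, with TGTTCT) is in 19% of all promoters, and TATAAA (with TTTATA) is in 14.2%. Neither is in any of these 6 windows, which says only that these letters are not there.

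Of the receptors known to drive secretion, Chrm3, the Gq-coupled muscarinic receptor of salivary and lacrimal cells, was measured at low intensity. It ranged from 0.251 to 0.847 (median 0.481) on lacrimal arrays, against 0.00931 to 0.383 (median 0.185) on the others, and was called higher there (1.62 ± 0.28, adjusted p = 6.45e-05). No fold is given, since the male lacrimal group was dim. Chrm3 was dim in 6 of the 10 groups and was kept through the female lacrimal group alone. On meibomian arrays it ranged from 0.00931 to 0.0721, dim in both sexes, against 0.0660 to 0.847 on the others. The meibomian difference was called (-2.72 ± 0.28, adjusted p = 3.49e-08), with no fold because of the dim level. Adra1b, a Gq-coupled alpha receptor for noradrenaline, was higher in the lacrimal gland (2.48-fold, 1.31 ± 0.20, adjusted p = 2.27e-05), at 1.43 to 5.69 (median 1.97), against 0.568 to 1.48 on the others. The highest array, female pool B, belongs to the smaller array set, and in the larger set alone the difference was 0.95. On meibomian arrays Adra1b lay at 0.568 to 0.769, below all other arrays (0.794 to 5.69), a difference of -0.97 that stayed short of 1. Adra2c, a Gi-coupled alpha receptor, was lower in the meibomian gland (2.36-fold, -1.24 ± 0.16, adjusted p = 7.54e-07).

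Vipr1, the Gs-coupled receptor for VIP, was at least 1.85-fold lower in the meibomian gland (-1.29 ± 0.21, adjusted p = 1.86e-05), at 0.199 to 0.271, against 0.263 to 1.07 elsewhere. Tacr1, the Gq-coupled receptor for substance P, was at least 1.41-fold higher in the lacrimal gland (1.14 ± 0.23, adjusted p = 4.25e-04), and the difference was 0.98 without male lacrimal pool C. It was lower in the submandibular gland (-1.41 ± 0.23, adjusted p = 9.10e-05), where both sexes were dim. Chrm4, the Gi-coupled muscarinic receptor, was called in no gland comparison (-0.82 ± 0.17 in the meibomian gland, adjusted p = 2.64e-04, short of 1).

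The ATP-gated channels of the P2X family had opposite patterns in the meibomian gland. P2rx4 ranged from 3.43 to 4.46 (median 4.04) on meibomian arrays, against 18.4 to 47.6 (median 30.9) on the other 20, a 7.95-fold lower level with no overlap (-2.99 ± 0.16, adjusted p = 3.06e-12). Its 4 sublingual arrays stood at 35.7, 44.1, 36.6 and 33.6, against 3.43 to 47.6 elsewhere, 2.09-fold above the mean of the other glands (1.06 ± 0.19, adjusted p = 3.25e-04). Without male sublingual pool B the difference was 0.99. P2rx7, which opens only at high ATP, was at least 2.04-fold lower in the meibomian gland (-1.61 ± 0.19, adjusted p = 2.12e-07), at 0.163 to 0.278 without overlap with 0.340 to 1.13 elsewhere. P2rx6 was also called lower there (-2.09 ± 0.27, adjusted p = 1.59e-06, with no fold since the mean of the others holds dim groups), and at least 1.42-fold higher in the submandibular gland (1.16 ± 0.25, adjusted p = 0.00151). Its geometric mean was 0.758 in male but 0.315 in female submandibular glands, against 0.311 in male and 0.690 in female lacrimal glands. With quantile normalization the submandibular difference was 0.99, short of the threshold. P2rx5 was among the 2 receptors higher in the meibomian gland, at least 1.34-fold (1.61 ± 0.29, adjusted p = 5.35e-05), at 0.313 to 0.683, against 0.0547 to 1.06 elsewhere. It was dim in 7 of the 10 groups and was kept through the meibomian gland alone. In the parotid gland P2rx5 was dim in both sexes and called lower (-1.05 ± 0.34, adjusted p = 0.0190), but not with the replicate block (adjusted p = 0.119) or without female sublingual pool A, female parotid pool A, male parotid pool B or male lacrimal pool C. The other receptor higher in the meibomian gland was P2ry1, the Gq-coupled ADP receptor, at least 1.10-fold (1.44 ± 0.31, adjusted p = 3.26e-04). Its geometric mean was 0.344 in male and 0.353 in female meibomian glands, against 0.329 in male and 0.226 in female lacrimal glands. P2ry1 was dim in 6 of the 10 groups and was kept through the meibomian gland alone.

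Among the other nucleotide receptors, P2ry14 was higher in the submandibular gland than in the mean of the others (2.70-fold, 1.43 ± 0.32, adjusted p = 0.00167). Its submandibular pools ranged from 2.48 to 27.1, and the 3 highest were male. P2ry13, a Gi-coupled ADP receptor, was at least 1.91-fold higher in the sublingual gland (1.13 ± 0.25, adjusted p = 0.00264), and 0.94 on the log2 scale without female sublingual pool B. P2ry4, a Gq-coupled UTP receptor, was 2.70-fold lower in the meibomian gland (-1.43 ± 0.28, adjusted p = 1.20e-04).

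Among the serotonin receptors, Htr1b, a Gi-coupled receptor, ranged from 99.5 to 214 (median 147) on the 6 lacrimal arrays, against 1.29 to 3.76 (median 1.99) on the other 19 with a value, a 67.0-fold difference with no overlap (6.07 ± 0.15, adjusted p = 7.79e-17). Both sexes were high in the lacrimal gland: 214, 99.5 and 164 in male pools, against 200, 122 and 129 in female pools. Male parotid pool A had no value for this probe. The other glands lay close together, at 2.997 to 3.76 (submandibular), 1.29 to 2.15 (sublingual), 1.99 to 2.67 (parotid) and 1.57 to 1.99 (meibomian). Sublingual (-1.98 ± 0.17, adjusted p = 1.07e-07), parotid (-1.38 ± 0.20, adjusted p = 2.22e-05) and meibomian Htr1b (-1.97 ± 0.15, adjusted p = 6.61e-10) were called lower against a mean that holds the lacrimal arrays. Htr2c, a Gq-coupled receptor known from brain, stood at 5.43, 15.3, 5.77 and 6.05 on sublingual arrays, against 0.0451 to 2.19 elsewhere, and was at least 20.3-fold higher there (4.96 ± 0.46, adjusted p = 1.36e-07). The 2.19 was female submandibular pool C, and the other 2 female submandibular pools stood at 0.177 and 0.278. On meibomian arrays Htr2c was dim at 0.0451 to 0.0946, below all other arrays, and was called lower (-3.52 ± 0.39, adjusted p = 1.41e-07), with no fold because the mean of the others also holds a dim group. Its parotid value (-1.20 ± 0.46, adjusted p = 0.0466) was not called with the replicate block (adjusted p = 0.165) or without any 1 of 17 arrays (adjusted p up to 0.322, without male parotid pool A).

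Htr7, a Gs-coupled receptor, ranged from 3.79 to 7.05 (median 4.45) on submandibular arrays, against 0.472 to 4.35 (median 1.55) elsewhere, 3.21-fold higher (1.68 ± 0.17, adjusted p = 1.98e-07). It was also higher in the parotid gland (1.04 ± 0.20, adjusted p = 3.09e-04), where the difference fell under 1 without female sublingual pool A (0.98), female parotid pool B (0.95) or male parotid pool B (0.90). In the meibomian gland it was 4.55-fold lower (-2.18 ± 0.17, adjusted p = 6.45e-10), at 0.472 to 0.730, below all other arrays (1.05 to 7.05). Htr5b, whose human counterpart is not functional, was 8.94-fold lower in the meibomian gland (-3.16 ± 0.24, adjusted p = 3.86e-10), at 0.182 to 0.432 without overlap with 1.14 to 9.93 elsewhere, and 3.25-fold higher in the lacrimal gland (1.70 ± 0.24, adjusted p = 6.53e-06). Htr2b, a Gq-coupled receptor, was at least 1.42-fold higher in the parotid gland (1.26 ± 0.30, adjusted p = 0.00254). Htr1a was higher in the lacrimal gland (2.38-fold, 1.25 ± 0.26, adjusted p = 5.84e-04), a value that holds the male pools described above, and 2.48-fold lower in the meibomian gland (-1.31 ± 0.26, adjusted p = 1.99e-04).

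Neuropeptide Y receptors split by gland. Npy2r, a Gi-coupled receptor that reads neuropeptide Y and peptide YY, stood at 146, 521, 178 and 485 on parotid arrays (male A and B, then female A and B), against 1.43 to 239 on the others. All 4 parotid values were above 80% of the maximum of their array (83.4% to 92.7%). At such values the parotid level is given as a lower bound, at least 21.0-fold above the mean of the others (4.39 ± 0.43, adjusted p = 7.22e-08). The sublingual arrays, at 100, 212, 85.2 and 239, were 8.99-fold above (3.17 ± 0.43, adjusted p = 1.54e-05), the submandibular arrays ranged from 13.6 to 53.3, and the lacrimal arrays from 2.48 to 13.2. The meibomian arrays, at 1.43 to 2.69, were lower (-4.76 ± 0.37, adjusted p = 6.05e-10), as were the lacrimal arrays (-2.96 ± 0.37, adjusted p = 1.51e-06). The sublingual, meibomian and lacrimal differences are taken against a mean that holds the parotid values. Npy2r was thus high in the parotid and sublingual glands of both sexes and low in the lacrimal and meibomian glands. In both high glands pool A, which lies in the smaller array set, was below pool B in each sex, and the parotid A values lay under the sublingual B values. Npy4r, the pancreatic polypeptide receptor, was at least 2.79-fold higher in the lacrimal gland (2.73 ± 0.37, adjusted p = 4.35e-06), at 0.517 to 2.39 without overlap with 0.0558 to 0.399 elsewhere. It was dim in 7 of the 10 groups and was kept through the lacrimal gland alone. Npy6r was at least 2.55-fold higher in the parotid gland (1.53 ± 0.21, adjusted p = 9.90e-06) and at least 1.69-fold lower in the meibomian gland (-1.49 ± 0.18, adjusted p = 5.87e-07). Npy1r was at least 1.89-fold higher in the lacrimal gland (1.41 ± 0.32, adjusted p = 0.00157), with a value on only 2 meibomian arrays.

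**Figure D4:**
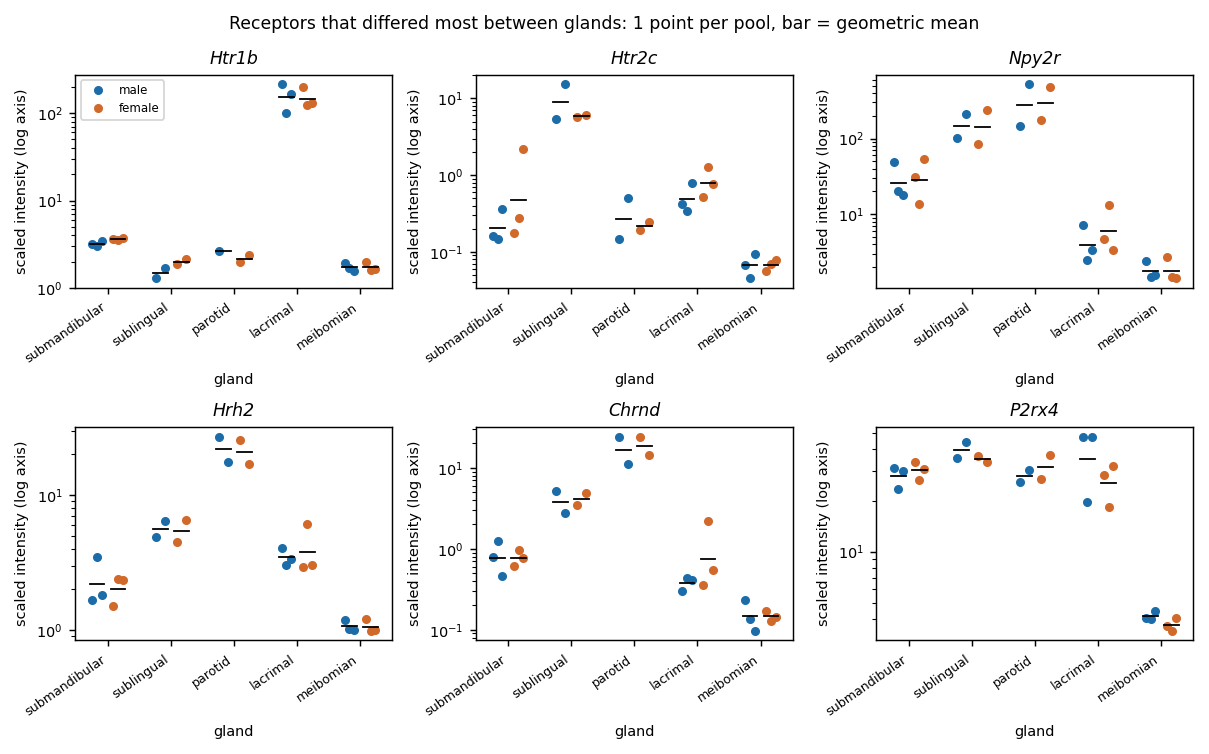
Scaled intensity (log axis) of Htr1b, Htr2c, Npy2r, Hrh2, Chrnd and P2rx4 by gland, 1 point per pool, male (blue) left of female (orange), with a bar at the geometric mean. Each of the first 5 peaks in 1 or 2 glands in both sexes, and P2rx4 drops in the meibomian gland.

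Hrh2, the Gs-coupled histamine receptor known for gastric acid secretion, stood at 27.1, 17.6, 25.7 and 17.0 on parotid arrays, against 0.992 to 6.51 (median 2.65) on the others. It was 8.27-fold higher there with no overlap (3.05 ± 0.21, adjusted p = 5.14e-10). It was 5.15-fold lower in the meibomian gland (-2.36 ± 0.18, adjusted p = 5.56e-10), at 0.992 to 1.20 below all other arrays (1.503 to 27.1). In the submandibular gland it was 2.19-fold lower (-1.13 ± 0.18, adjusted p = 7.16e-05). Both differences are taken against a mean that holds the parotid values. The submandibular geometric means (2.19 in males and 2.03 in females) were above the meibomian ones (1.065 and 1.062). Drd3, a Gi-coupled dopamine receptor, stood at 0.181, 0.178 and 0.145 in male submandibular pools, against 0.952, 0.615 and 0.476 in female submandibular pools. It was dim in 9 of the 10 groups and was kept through the female submandibular group alone. The submandibular gland as a whole was called higher (1.10 ± 0.32, adjusted p = 0.0113), but its male pools lay among those of the other glands. That difference was not called with the replicate block (adjusted p = 0.0643), and it was 0.97 without female submandibular pool A. Drd4, of the same class, was 2.30-fold higher in the lacrimal gland (1.20 ± 0.21, adjusted p = 9.98e-05), and 0.98 on the log2 scale without male lacrimal pool A.

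The lacrimal gland also stood out for F2rl3, at least 8.18-fold higher than the mean of the others (4.41 ± 0.33, adjusted p = 9.08e-10), with all 6 arrays (0.410 to 21.7) above the highest of the others (0.362). Male pools made up the upper part of that range. F2rl3 was dim in 7 of the 10 groups and was kept through the lacrimal gland alone. In the sublingual gland F2rl3 was dim and called lower (-1.17 ± 0.38, adjusted p = 0.0313), which was not called with the replicate block (adjusted p = 0.218) or without female pool A (0.195), male pool A (0.151) or male pool B (0.0589). F2r, the PAR1 thrombin receptor, was called in no comparison. Its values on the smaller array set ranged from 0.396 to 0.749, against 0.864 to 3.87 on the larger. The sets were defined from the values on these same arrays, so this split is no separate support for them.

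Of the GABA channel subunits, Gabrb2 was at least 2.33-fold higher in the lacrimal gland (3.13 ± 0.44, adjusted p = 7.78e-06), at 0.206 to 2.62, against 0.0235 to 0.259 elsewhere. It was dim in 8 of the 10 groups and was kept through the lacrimal gland alone. Gabrr1 was 7.03-fold higher there (2.81 ± 0.28, adjusted p = 6.91e-08), with the male pools highest. Gabrb2 showed no such split: its lacrimal values were 0.397, 1.19 and 0.886 in male pools, against 0.206, 2.62 and 0.813 in female pools. Among glutamate channel subunits, Gria2 was at least 1.47-fold higher in the lacrimal gland (1.61 ± 0.32, adjusted p = 4.09e-04), and its sublingual value (-1.37 ± 0.38, adjusted p = 0.0122) was not called with the replicate block (adjusted p = 0.168) or without female pool A (0.0795) or male pool B (0.183). Gria3 was at least 2.51-fold higher in the parotid gland (1.60 ± 0.38, adjusted p = 0.00246) and at least 1.30-fold lower in the meibomian gland (-1.48 ± 0.33, adjusted p = 4.93e-04). In the larger array set alone the parotid difference of Gria3 was 1.04. With quantile normalization its meibomian difference was -0.75 and was not called (adjusted p = 0.130). Grik2, a kainate receptor subunit, was 2.30-fold lower in the meibomian gland (-1.20 ± 0.23, adjusted p = 1.20e-04).

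The nicotinic subunits include those of the muscle receptor, the channel that opens at nerve contacts of skeletal muscle. Chrnd, its delta subunit, stood at 24.4, 11.1, 24.2 and 14.3 on parotid arrays, against 0.0978 to 5.24 (median 0.505) on the others, at least 21.1-fold higher and without overlap (4.64 ± 0.35, adjusted p = 1.28e-09). On sublingual arrays it stood at 5.24, 2.81, 3.49 and 4.91, at least 3.31-fold above the mean of the others (1.97 ± 0.35, adjusted p = 2.46e-04). Meibomian arrays were dim at 0.0978 to 0.233, below all others, and at least 7.94-fold lower (-3.98 ± 0.30, adjusted p = 3.32e-10). The lacrimal level was called lower (-1.65 ± 0.30, adjusted p = 1.18e-04) against a mean that holds the dim meibomian groups, so no fold is given.

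Markers of skeletal muscle were set beside these values. The sum of 16 muscle probes was 62.9 to 291 on parotid arrays, 209 to 393 on meibomian, 5.26 to 26.7 on submandibular, 7.29 to 11.6 on lacrimal and 4.34 to 7.12 on sublingual arrays. In the parotid gland 16 of 18 muscle probes were higher, and in the meibomian gland 18 of 18. Acta1 reached 36.5 on parotid and 27.1 on meibomian arrays but at most 0.393 on sublingual arrays. The sublingual arrays, with low muscle sums, came next to the parotid arrays in Chrnd, and the meibomian arrays, with high muscle sums, had the lowest. Male parotid pool B had a muscle sum of 291 and a Chrnd of 11.1, while female parotid pool A had 62.9 and 24.2. The part of muscle in Chrnd was not tested further. The other subunits of that receptor did not follow Chrnd: Chrna1 was 2.39-fold higher in the lacrimal gland (1.26 ± 0.24, adjusted p = 2.49e-04), though 0.94 on the log2 scale without female lacrimal pool B, and Chrnb1 was called nowhere. Chrng and Chrne, the embryonic and adult subunits, were not kept. Chrna6, a subunit known from neurons, was higher in the parotid gland (2.05-fold, 1.03 ± 0.18, adjusted p = 1.12e-04), and fell under 1 without male sublingual pool A (0.98), female parotid pool A or male parotid pool B (0.95).

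**Figure D5:**
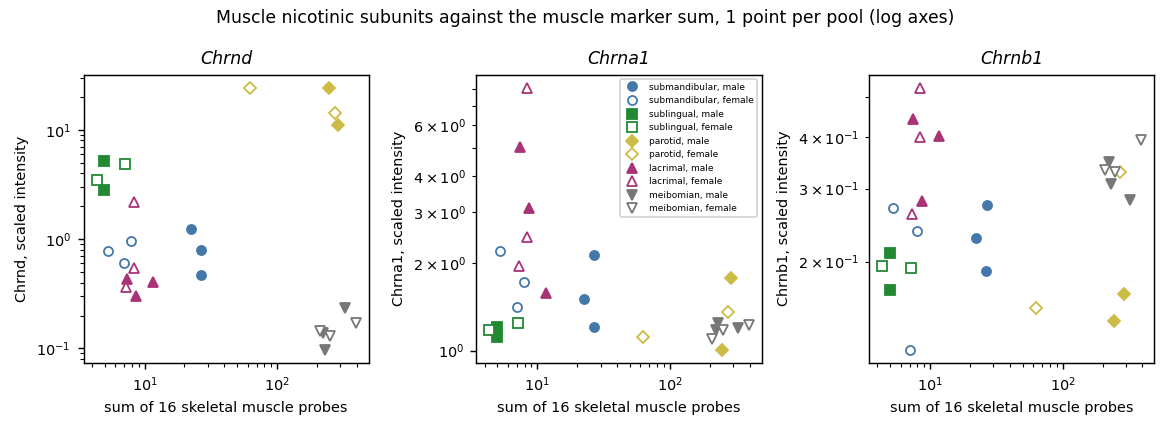
Chrnd, Chrna1 and Chrnb1 (scaled intensity, log axis) against the sum of 16 skeletal muscle probes (log axis), 1 point per pool, filled for male and open for female, shape and colour by gland. Parotid and meibomian points share high muscle sums of 62.9 to 393 but lie at opposite ends of the Chrnd axis.

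The kept probes called in no gland comparison were Chrna5, Chrnb1, Chrm4, Gabrd, Grik5, Htr1d, Htr3b, Htr6, P2rx1, Ptger4, Sstr2, Sstr3, Oprd1, F2r and Grina. Their gland means spanned from 0.60 (Chrna5) to 1.46 (Sstr3) on the log2 scale. Some had a small but clear difference: Grik5, a kainate subunit, ranged from 2.11 to 2.98 on meibomian arrays, above all others (0.878 to 1.82), by 0.90 ± 0.14 (adjusted p = 1.07e-05). Grina ranged from 7.45 to 13.7 on submandibular arrays, above all others (3.07 to 6.48), by 0.94 ± 0.12 (adjusted p = 4.00e-06). Both stayed short of a log2 difference of 1. Of the other called differences, Htr5a, P2rx5 and P2rx6 in the lacrimal gland and P2ry14 and Drd4 in the meibomian gland were lost without at least 1 array.

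Genes that make, remove or carry the signals of these receptors were examined beside them. Of 19 kept probes for ligands and their enzymes and transporters, the meibomian gland had 4 higher and 4 lower (16.9% and 21% of all probes), shares near those of all probes, and the parotid gland 3 and 2 (8.96% and 8.11% of all probes). Th, the enzyme that starts catecholamine synthesis, had the sharpest pattern. Its geometric mean was 145 in male and 203 in female submandibular glands, 24.7 and 88.5 in male and female sublingual glands, and 0.456 and 0.458 in male and female meibomian glands. The difference was 5.51 ± 0.18 in the submandibular gland (adjusted p = 1.05e-14) and -5.18 ± 0.18 in the meibomian gland (adjusted p = 3.22e-15). Nt5e, which makes adenosine outside the cell, was higher in the meibomian gland (3.55 ± 0.28, adjusted p = 6.80e-10), and Hnmt, which inactivates histamine, was lower there (-3.09 ± 0.28, adjusted p = 6.07e-09). Ada, which removes adenosine, was higher in the parotid gland (2.15 ± 0.15, adjusted p = 5.14e-10), as was Hnmt (1.36 ± 0.32, adjusted p = 0.00250).

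Of 20 kept probes for G protein alpha subunits and receptor regulators, 5 were lower and 2 higher in the meibomian gland, against 21% and 16.9% of all probes. The lower ones include Gna14 (-1.46 ± 0.19, adjusted p = 7.71e-07) and Gnaq (-1.19 ± 0.22, adjusted p = 8.53e-05), alpha subunits of the Gq family. The higher ones were Rgs4 (1.93 ± 0.26, adjusted p = 1.41e-06) and Ramp1, a receptor partner (1.78 ± 0.14, adjusted p = 7.50e-10). Gna14 was higher in the lacrimal gland (1.12 ± 0.19, adjusted p = 4.73e-05) and lower in male than in female lacrimal glands (-1.33 ± 0.32, adjusted p = 0.0150), where Rgs3, which turns G proteins off, was higher in males (1.26 ± 0.36, adjusted p = 0.0441). Of 11 kept synapse scaffold probes, Dlg4 (1.64 ± 0.23, adjusted p = 6.19e-06) and Homer3 (1.55 ± 0.30, adjusted p = 2.89e-04) were higher in the lacrimal gland, and Homer2 (-1.82 ± 0.21, adjusted p = 1.93e-07) and Homer3 (-1.30 ± 0.30, adjusted p = 8.32e-04) were lower in the meibomian gland.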

How the data were processed

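The deposited values are linear intensities of 10500 probes on 26 arrays. No header or label says how the authors made these intensities. The values show a scaling within arrays. The sources used here do not describe scanning or scaling. The value -1 (2241 cells, 0.821%) was taken as a missing-spot code and left out. Before log2, anything under 0.0234 (1st percentile of positive values) was set to it. The filter at the 30th percentile left 8227 probes. Gene names came from the platform annotation and RefSeq (GRCm38.p6). Of the 89 receptor-family probes 80 cite a RefSeq transcript of their gene. The kept probes that do not are P2ry14, Hrh2, P2ry13 and Chrna5. Probe specificity was not examined further, so a symbol stands for its probe.

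Limma 3.58.1 (R 4.3.3) fitted 10 group means to all 26 arrays, with 16 residual and 4.11 prior degrees of freedom, and Benjamini-Hochberg adjustment over all probes kept. The code was tested on simulated data. Where a group is dim, its level is replaced by the threshold if that is higher, and the fold reads "at least". Levels are geometric means. The labels describe the pools as separate groups of animals. Their number limits the precision, and the median standard deviation between pools of a group was 0.242 (meibomian) to 0.505 (lacrimal) on the log2 scale. The pool letter paired the sexes: over 7555 probes, deviations of same-letter pools correlated at 0.441 to 0.816 in the glands with 3 pools, and all 9 pairs were the best match. In glands with 2 pools the correlation was 0.518 to 0.650.

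Named members are up to 8 higher and 6 lower per gland among the calls, all members called for sex, and the receptors known to drive secretion. For pathway lists up to 4 genes per list and comparison are named. The members, lists and rules were chosen with earlier results of these data known. Remarks on members outside the rule (Grik5, Grina and other members called nowhere, the calls lost or gained in another fit, and Htr2b, Npy1r and Drd4) were chosen after their values were seen. The alternatives tried are the code for missing values, the floor, a pseudocount of 0.25, the filter, quantile normalization, array weights, the replicate block (pool letter within gland, fixed for sex and random for glands), the arrays of 1 gland alone, the adjusted p alone, the array sets and each array left out.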

Additional observations from a re-analysis of the deposited data

Results flagged for a closer look

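F2rl3 is listed because its sex difference differed between glands: the F test of the sex difference across the 5 glands gave an adjusted p of 0.002872 (limma, over all probes kept). The male minus female difference was 4.28 ± 0.57 in the lacrimal gland (SE). The other glands gave 0.82 ± 0.57 (meibomian), 0.17 ± 0.70 (parotid), -0.21 ± 0.70 (sublingual) and -0.91 ± 0.57 (submandibular), none of them called.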

How the results depend on the processing

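Of 76 receptor differences called, none reversed under any setting that gave a value. With the replicate block 71 stayed called, with quantile normalization 63, with the larger array set only 63, with log2 of the intensity plus 0.25 40, and with array weights 71. The array-set settings were chosen after seeing the data.

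Submandibular sex calls, 1 in all, became 2 with the 5th-percentile floor, 2 with the 0.25 pseudocount, 3 with array weights, 6 with the replicate block and 2 with that gland's arrays alone. Lacrimal sex calls, 3, became 5 with quantile normalization and 9 with the replicate block. Calls in the mean of glands, 0, became 1 with the pseudocount and 3 with the replicate block. F test calls for sex by gland, 1, became 2 with the pseudocount, 2 with array weights, 3 with the array set as a term and 5 with the replicate block. Gland counts follow, higher then lower. With the pseudocount the submandibular count was 2 higher, the sublingual 1 lower, the parotid 4 higher, the lacrimal 9 higher (8.47% of all probes), and the meibomian 0 higher (13.3%) and 11 lower (13.9%). The 50th percentile as filter left 26 receptors tested, with 2 higher and 1 lower in the submandibular, 7 higher in the lacrimal (26.9%, against 11.7% of all probes), and 0 higher and 15 lower in the meibomian gland (57.7%, against 20.6% of all probes, for lower). Without a filter 89 were tested, with 38 higher in the lacrimal (21.9% of all probes) and 43 lower in the meibomian gland (28%). With the adjusted p alone it was 11 and 8 in the submandibular, 5 lower in the sublingual, 13 higher in the parotid, 30 and 6 in the lacrimal, and 6 higher in the meibomian gland. Dropping the log2 threshold can only add calls, among all probes too, and their share was not set beside these counts. Array weights gave 4 lower in the submandibular gland, the missing code at the floor 1 lower in the sublingual gland, and the replicate block 1 lower in the sublingual and 1 in the parotid gland. The gland F test, 47 of 51, gave 72 of 89 without a filter and 26 of 26 with the higher one. Counts printed here without a share of all probes say only how the receptor calls moved. Fewer or more probes tested, a lost threshold or compressed low values are built into those settings, and the cause of the rest was not tested.

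Leaving out each array in turn gave 0 to 2 calls for submandibular sex, 3 to 6 for lacrimal sex, 0 to 1 in the mean of glands and 1 to 3 in the sex by gland F test. For submandibular sex the count was 0 without female B, female C, male A or male C, and 2 without female lacrimal B, female meibomian A or female meibomian C. For lacrimal sex it was 5 without male lacrimal B and 6 without male lacrimal C. The mean of glands gave 1 without female parotid A, and the F test 2 without female parotid B and 3 without male lacrimal C. The submandibular lower count was 6 without male submandibular B, 5 without female submandibular C or female sublingual A, and 4 without female submandibular B, male submandibular A, male sublingual B, female parotid A, male parotid B, female lacrimal A, female lacrimal C, male lacrimal B or male meibomian C. The sublingual lower count was 1 without female sublingual A or male sublingual B, and the parotid lower count 1 without female sublingual A, male parotid B or male lacrimal C. Sex calls in the sublingual, parotid and meibomian glands were 0 without any 1 array. The gland counts, higher then lower, ranged over 3 to 4 and 2 to 6 (submandibular), 4 to 5 and 1 to 4 (sublingual), 6 to 11 and 1 to 3 (parotid), 14 to 19 and 2 (lacrimal), and 2 and 22 to 28 (meibomian), and the gland F test over 45 to 50. Of the 76 calls 18 were lost without at least 1 array. Without male parotid pool B, Htr1b has no parotid male value left and Grik2 likewise, so their gland differences have no value there. Receptor probes at low intensity carry the largest relative error and depend on the floor, the pseudocount and the filter.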
